A study of Mus musculus with 3 samples.

Results

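Pou5f1, Sox2, Nanog, Sall4, Utf1, Tdgf1, L1td1 and Lin28a encode core pluripotency factors that mouse embryonic stem cells and epiblast stem cells both express. These 8 genes were chosen by symbol, with no threshold on their values, and every probe assigned to them is described. The array carried 14 such probes, among 16593 genes with at least 1 probe. Sall4 had 3 probes, Pou5f1, Sox2, Tdgf1 and Lin28a had 2 each, and Nanog, Utf1 and L1td1 had 1 each. The brightest probe of each of the 8 genes was detected on all 3 arrays, at a detection p-value under 0.01, and 13 of the 14 probes were detected on all 3.

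RNA came from 3 mouse cultures with 1 bead array each. E3 epiblast stem cells, of hybrid genetic background, grew on inactivated CF1 mouse embryonic fibroblasts with FGF2 at 5 ng/ml, and were lifted off with collagenase IV. E3R cells are cells of the E3 line reverted to a state resembling embryonic stem cells, and CGR8 is an embryonic stem cell line. Both of these grew on gelatin with the MEK inhibitor PD0325901 at 1 µM, the GSK3 inhibitor CHIR99021 at 3 µM and 1000 U of the cytokine LIF, and were harvested on the dish. All 3 media were based on KSR. With 1 array per culture no p-value between cultures exists, and each culture stands for its state alone. E3 and E3R are of the same line but differ in state, medium, feeders and harvest, which cannot be told apart. E3R and CGR8 share medium, gelatin and harvest but differ in line and in reversion, which cannot be told apart either. Between E3 and CGR8, line, state, medium, feeders and harvest all differ. Values after ± are standard errors over the beads of a probe and say nothing of the spread between cultures, extracts or arrays. In bulk RNA, fewer cells that express a gene and less RNA per cell cannot be told apart.

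Pou5f1 (Oct4) and Sox2 bind DNA as a pair at joined octamer and SOX motifs and, with the homeodomain protein Nanog and the zinc finger protein Sall4, form the transcriptional core of pluripotency. Utf1 is a chromatin-bound protein of undifferentiated cells. Tdgf1, also called Cripto, is a membrane-anchored co-receptor of the ligand Nodal. Lin28a is an RNA-binding protein that blocks maturation of let-7 microRNAs, and L1td1 is an RNA-binding protein derived from a LINE-1 retrotransposon. Epiblast stem cells and embryonic stem cells stand for the primed and the naive state, which use different enhancers of Pou5f1.

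Promoters are shown for the 5 genes with the widest range of log2 signal over the 3 arrays on their brightest probe. Each runs 5′ to 3′ on the strand of its gene, from 250 bases before the annotated start to 50 bases from the start on, as given by RefSeq for GRCm38.p6, and 7 of the 8 genes matched an entry. Capitals mark matches on either strand to the octamer ATGCAAA, the SOX motif CATTGT, the GC box GGGCGG and the nuclear receptor motif AGGTCA, where neighbouring matches may touch or overlap.
Nanog, chr6:122707239-122707538, plus strand: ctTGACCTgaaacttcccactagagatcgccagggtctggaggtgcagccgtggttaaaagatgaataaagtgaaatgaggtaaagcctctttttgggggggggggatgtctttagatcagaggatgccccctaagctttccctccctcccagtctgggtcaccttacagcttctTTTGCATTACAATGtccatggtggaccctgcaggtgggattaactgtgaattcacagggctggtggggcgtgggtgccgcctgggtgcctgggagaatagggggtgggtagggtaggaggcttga
Sox2, chr3:34649745-34650044, plus strand: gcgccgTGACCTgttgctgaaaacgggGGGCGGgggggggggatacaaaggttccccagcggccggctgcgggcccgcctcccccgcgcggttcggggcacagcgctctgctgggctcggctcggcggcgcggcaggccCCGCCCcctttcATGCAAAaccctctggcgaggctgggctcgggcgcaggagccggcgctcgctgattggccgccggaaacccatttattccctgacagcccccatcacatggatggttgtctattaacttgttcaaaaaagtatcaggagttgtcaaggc
Utf1, chr7:139943606-139943905, plus strand: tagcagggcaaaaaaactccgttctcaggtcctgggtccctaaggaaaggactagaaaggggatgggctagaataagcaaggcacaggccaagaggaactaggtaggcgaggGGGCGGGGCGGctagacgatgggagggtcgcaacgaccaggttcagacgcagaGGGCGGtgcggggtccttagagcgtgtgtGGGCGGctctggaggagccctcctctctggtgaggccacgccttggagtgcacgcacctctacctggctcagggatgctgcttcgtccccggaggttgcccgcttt
Lin28a, chr4:134018767-134019066, minus strand: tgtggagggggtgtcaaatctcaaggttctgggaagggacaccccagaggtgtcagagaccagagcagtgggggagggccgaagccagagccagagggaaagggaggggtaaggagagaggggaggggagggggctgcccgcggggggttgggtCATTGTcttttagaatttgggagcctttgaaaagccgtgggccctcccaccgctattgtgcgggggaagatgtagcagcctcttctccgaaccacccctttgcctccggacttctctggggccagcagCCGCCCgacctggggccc
L1td1, chr4:98726504-98726803, plus strand: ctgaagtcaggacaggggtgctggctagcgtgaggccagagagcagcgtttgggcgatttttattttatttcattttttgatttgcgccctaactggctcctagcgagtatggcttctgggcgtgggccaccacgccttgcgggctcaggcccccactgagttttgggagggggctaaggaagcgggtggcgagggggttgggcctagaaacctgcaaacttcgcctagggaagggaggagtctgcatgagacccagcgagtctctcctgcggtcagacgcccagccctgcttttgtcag

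In the Nanog window, bases 176 to 189 held a SOX motif 1 base away from an octamer, both on the minus strand. That joined motif, CATTGT, any base, then ATGCAAA, occurred in 2 of 32851 promoter windows (0.00609%), and both windows were those listed for Nanog, which overlap and share the site. Only this exact spelling and spacing was searched, so the share says nothing of joined motifs with other letters. That Nanog window also held a nuclear receptor motif at bases 3 to 8. The Sox2 window held an octamer with no SOX motif, at bases 152 to 158, where 4.63% of all windows had an octamer, and also 2 GC boxes and 1 nuclear receptor motif. Utf1 had 4 GC boxes, 2 of them sharing a base, whereas 35.7% of all windows had at least 1. Lin28a had 1 SOX motif, present in 12.6% of all windows, and 1 GC box. L1td1 had no match to these letters. The first Pou5f1 window, not printed, held a GC box at bases 206 to 211 and a nuclear receptor motif, found in 16.3% of all windows, at bases 218 to 223. The ratio of observed to expected CpG was 0.192 for Nanog, 0.819 for Sox2, 0.615 for Utf1, 0.351 for Lin28a and 0.559 for L1td1, against a median of 0.384 over all windows. Such matches describe the letters in these windows only, and binding was not measured.

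The 3 arrays carried 25697 probes each, of which 38.4% to 42.0% were detected. Raw signals were lower overall on the reverted array: 9 reference genes summed to 44991 on the epiblast, 26636 on the reverted and 34562 on the embryonic array. Comparisons therefore use normalized log2 signals, and raw signals are given as deposited. After normalization 2 of the 9 reference genes were still at least 2-fold lower in reverted than in epiblast stem cells, and 7 were within 2-fold. Levels of different probes are not compared, since probes differ in brightness. State markers separated the epiblast array from the other two. All 15 measured naive genes, such as the nuclear receptor gene Esrrb with log2 signals of 5.41, 11.85 and 11.77 in epiblast, reverted and embryonic order, exceeded 2-fold in favour of reverted cells, compared with epiblast stem cells. Of 11 measured primed genes, 9 were at least 2-fold lower, such as the homeobox gene Otx2 with log2 signals of 10.97, 8.05 and 8.61. Fibroblast markers, which feeders could add, were detected for 6, 3 and 4 of 16 genes on the epiblast, reverted and embryonic arrays. Their summed raw signals were 2026, 1441 and 1699. These sums are not normalized and include the background of undetected probes, so they do not compare fibroblast signal between arrays. Of 6 fibroblast genes with a value, 4 were lower in reverted than in epiblast stem cells by 2-fold or more and 0 higher (median -1.29). The shares over all genes were 12.4% lower and 12.7% higher. Thy1 was lower by at least 6.38-fold, Bgn by at least 3.26-fold and Dcn by at least 2.57-fold, these 3 being detected in epiblast stem cells only, and Acta2 by 2.31-fold. Without background correction the bound for Thy1 was log2 -1.49 in place of -2.67. Bgn was under 2-fold in 1 alternative setting, and Dcn and Acta2 in 3 each. Between epiblast and embryonic stem cells 5 of 8 were at least 2-fold higher in the former, beside 13.9% of all genes. The 1 that was lower by that much, beside 13.4% of all genes, was Col5a1 at 3.19-fold. Col5a1 was also 1.45-fold higher in reverted than in epiblast stem cells. The collagen genes Col1a1, Col1a2 and Col3a1 were detected on none of the 3 arrays. The part of feeder RNA in the results below was not tested.

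**Figure D1:**
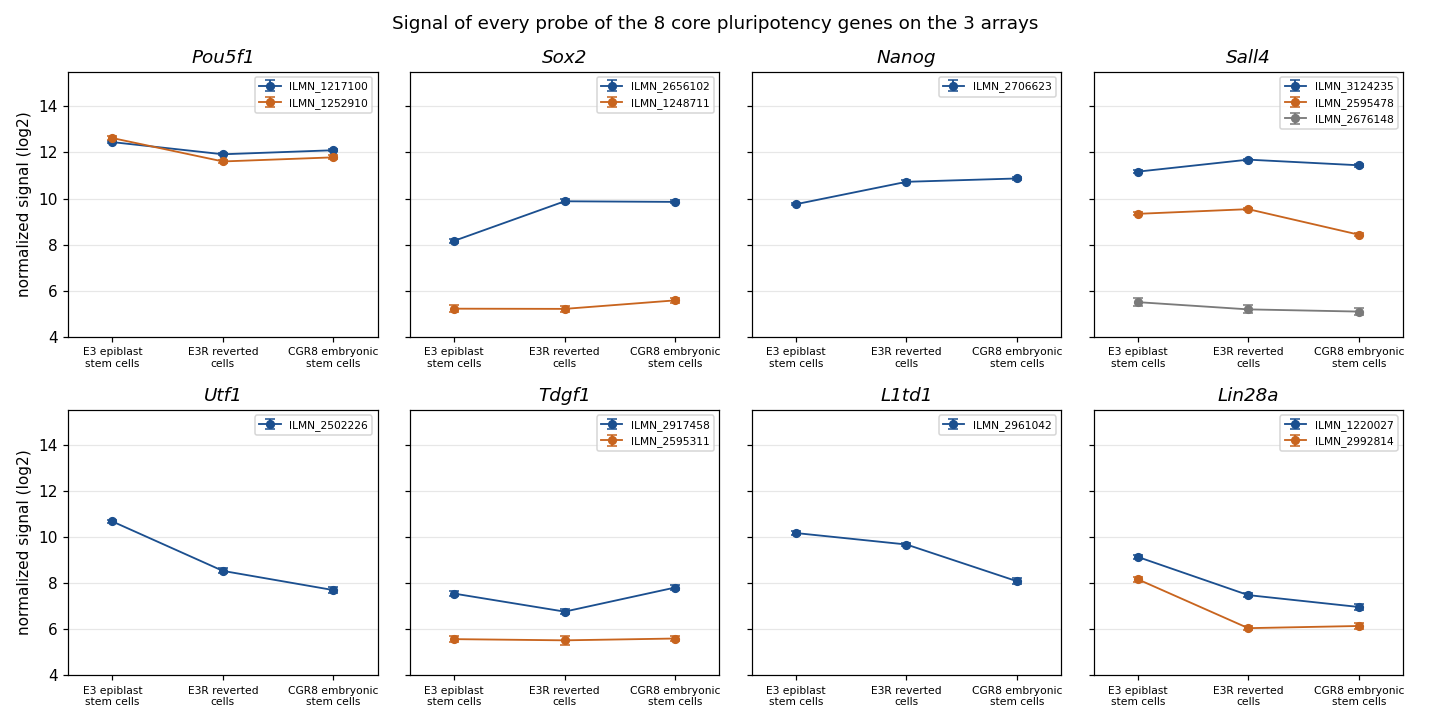
Normalized log2 signal (vertical axis) of every probe of the 8 genes on the 3 arrays (horizontal axis: epiblast, reverted, embryonic), 1 colour per probe, with error bars of 1 standard error over beads. Utf1, L1td1 and Lin28a were highest in epiblast stem cells, the brightest Sox2 probe and Nanog were lowest there, and both Pou5f1 probes stayed above log2 11.

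Pou5f1 was strongly expressed in all 3 cultures and somewhat higher in epiblast stem cells, with the size depending on the probe. For probe ILMN_1217100 the raw signal was 6216 ± 231 in epiblast, 3487 ± 102 in reverted and 4606 ± 152 in embryonic stem cells. After normalization these became log2 12.45, 11.92 and 12.10. Reverted cells were thus lowest and epiblast stem cells highest, and each gap between neighbours exceeded 2 bead standard errors. The reverted cells were 1.44-fold below epiblast stem cells (log2 difference -0.53, bead standard error 0.07) and 1.13-fold below embryonic stem cells (-0.17, 0.06).

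The second Pou5f1 probe, ILMN_1252910, gave raw signals of 7143 ± 359, 2749 ± 137 and 3715 ± 212, or log2 12.63, 11.61 and 11.79. The order of the cultures was the same, but the gap between reverted and embryonic stem cells was within 2 bead standard errors (-0.18, 0.11). Reverted cells were 2.02-fold below epiblast stem cells (-1.02, bead standard error 0.10), a wider gap than by the first probe. This probe lay just past the 2-fold line, and marginally inside it without background correction. Under scaling to a common median, both probes moved, to -0.85 and -1.40, where the median of all genes itself lay at -0.20. Epiblast stem cells were 1.28-fold above embryonic stem cells by the first probe and 1.79-fold by the second, the latter past 2-fold (log2 1.07) with that scaling.

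Sox2 ran the other way on its bright probe. Probe ILMN_2656102 had raw signals of 365 ± 20.6 in epiblast, 911 ± 48.2 in reverted and 1076 ± 48.5 in embryonic stem cells, with log2 signals of 8.17, 9.88 and 9.86. Both cultures in the inhibitor medium were clearly above the epiblast culture, and between themselves they differed by 0.03 (bead standard error 0.11), with a sign that turned under scaling to a common median and with the mean of both probes. Sox2 was 3.29-fold higher in reverted than in epiblast stem cells (log2 difference 1.72, bead standard error 0.13), a size that 7.91% of all genes with a value reached or passed in either direction.

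The other Sox2 probe, ILMN_1248711, was dim, with raw signals of 104 ± 4.21, 97.4 ± 2.87 and 120 ± 4.33 against array medians of 89.2, 85.3 and 92.9. Its log2 signals were 5.22, 5.21 and 5.58, with no gap between neighbours beyond 2 bead standard errors. It did not show the difference of the bright probe, with -0.01 (bead standard error 0.20) between reverted and epiblast stem cells. Against embryonic stem cells reverted cells were 1.29-fold lower by this probe (-0.37, bead standard error 0.17), past 2 standard errors. The mean of both probes put Sox2 at 0.85 between reverted and epiblast stem cells, under 2-fold.

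Nanog, measured by probe ILMN_2706623 alone, had raw signals of 944 ± 33.2 in epiblast, 1569 ± 69.7 in reverted and 2066 ± 69.8 in embryonic stem cells. Its log2 signals of 9.76, 10.73 and 10.87 put epiblast stem cells lowest, while the gap between the other two (0.14, bead standard error 0.08) was within 2 standard errors. The difference between reverted and epiblast stem cells was 1.96-fold (0.97, bead standard error 0.09), just under the 2-fold line, and just over it (1.01) with the authors' processed values. Epiblast stem cells were 2.17-fold below embryonic stem cells (-1.12, bead standard error 0.07).

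The 3 Sall4 probes did not share a pattern, and the dimmest showed no gap between neighbours beyond 2 bead standard errors. Probe ILMN_3124235, the brightest and designed to another transcript record than the other two, had raw signals of 2503 ± 86.2, 2906 ± 81.4 and 3012 ± 131 in the order epiblast, reverted, embryonic. In log2 units the signals were 11.17, 11.69 and 11.45, all within 1.44-fold of each other. By this probe epiblast stem cells were 1.21-fold below embryonic stem cells, a direction that turned (log2 0.35) with the mean of all 3 probes.

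Probe ILMN_2595478 had raw signals of 728 ± 27.7, 732 ± 19.1 and 443 ± 16.4, and log2 signals of 9.34, 9.54 and 8.43. Here both cultures of the E3 line stood above CGR8: reverted cells were 2.15-fold above embryonic stem cells (log2 difference 1.11, bead standard error 0.08) and epiblast stem cells 1.87-fold (0.90, 0.09). A size like the first was reached by 2.44% of all genes with a value. It was under 2-fold without background correction (0.98) and under scaling to a common median (0.95). Probe ILMN_2676148 was near background, with raw signals of 113 ± 5.39, 96.9 ± 4.09 and 105 ± 4.04, and was not detected in embryonic stem cells at the detection limit used.

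Utf1 had the widest range of the 8 genes. Probe ILMN_2502226 gave raw signals of 1768 ± 97.6 in epiblast, 386 ± 23.7 in reverted and 292 ± 19.1 in embryonic stem cells, with log2 signals of 10.67, 8.52 and 7.69. Each culture differed from its neighbour by more than 2 bead standard errors, with epiblast stem cells highest and embryonic stem cells lowest. The level in reverted cells was 4.42-fold below that in epiblast stem cells (log2 difference -2.15, bead standard error 0.13) and 1.78-fold above that in embryonic stem cells (0.83, 0.16). Between epiblast and embryonic stem cells the difference was 7.88-fold (2.98, 0.15), reached by 1.97% of all genes with a value. Reverted cells lay at 72.0% of the log2 distance from epiblast to embryonic stem cells.

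Lin28a was also highest in epiblast stem cells, on both of its probes. Probe ILMN_1220027 had raw signals of 638 ± 36.1, 222 ± 8.67 and 201 ± 10.9 in epiblast, reverted and embryonic stem cells, or log2 9.13, 7.47 and 6.95. Probe ILMN_2992814 had 363 ± 20.7, 123 ± 3.99 and 144 ± 5.79, or log2 8.16, 6.04 and 6.13. Epiblast stem cells stood apart on each, whereas reverted and embryonic stem cells were close. Reverted cells were 3.16-fold below epiblast stem cells by the first probe (-1.66, bead standard error 0.12) and 4.35-fold by the second (-2.12, 0.14). Against embryonic stem cells they were 1.43-fold higher by the first (0.52, 0.14), while the second gave -0.09 (0.15), within its bead error.

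The let-7 microRNAs that Lin28a acts on were not measured here. They are shown because several let-7 targets were on the array and are described below. LIN28 proteins bind a GGAG motif in the let-7 precursor, capitalized in the hairpin, and capitals in the mature forms mark the seed, bases 2 to 8, shared by 9 of 10 mature let-7 sequences of the mouse in RefSeq.
let-7g hairpin: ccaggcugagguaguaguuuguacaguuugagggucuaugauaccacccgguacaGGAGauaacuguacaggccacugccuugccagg
let-7g-5p: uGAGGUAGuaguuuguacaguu
let-7a-5p: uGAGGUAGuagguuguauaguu

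L1td1 was higher in both E3 cultures than in CGR8, as was the second Sall4 probe. Probe ILMN_2961042 had raw signals of 1253 ± 56.2 in epiblast, 794 ± 35.4 in reverted and 360 ± 24.3 in embryonic stem cells, with log2 signals of 10.16, 9.67 and 8.07. Both E3 cultures were far above CGR8, and the gap between them was smaller, though beyond 2 bead standard errors. Reverted cells were 3.02-fold above embryonic stem cells (log2 difference 1.59, bead standard error 0.14), a size reached by 0.673% of all genes with a value. The source of this difference was not tested. They were 1.41-fold below epiblast stem cells (-0.50, 0.10) and lay at 23.8% of the log2 distance to embryonic stem cells.

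By its brightest probe Tdgf1 was lowest in reverted cells, as was Pou5f1 by its own, and the Tdgf1 gaps to both references were wider. Probe ILMN_2917458 had raw signals of 258 ± 13.1, 160 ± 7.20 and 309 ± 19.4, and log2 signals of 7.53, 6.75 and 7.80 in epiblast, reverted and embryonic stem cells. Epiblast and embryonic stem cells differed by -0.26 (bead standard error 0.15), within 2 standard errors. Reverted cells were 2.06-fold below embryonic stem cells (-1.05, bead standard error 0.16) and 1.72-fold below epiblast stem cells (-0.78, 0.15). The first difference was under 2-fold without background correction (-0.73), with an offset of 50 (-0.86) and with the mean of both probes (-0.56). The second kept its sign in all settings and was -0.42 at its smallest. The dim probe ILMN_2595311, with raw signals of 115 ± 4.80, 105 ± 5.78 and 120 ± 4.40, showed no gap beyond its bead error.

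**Figure D2:**
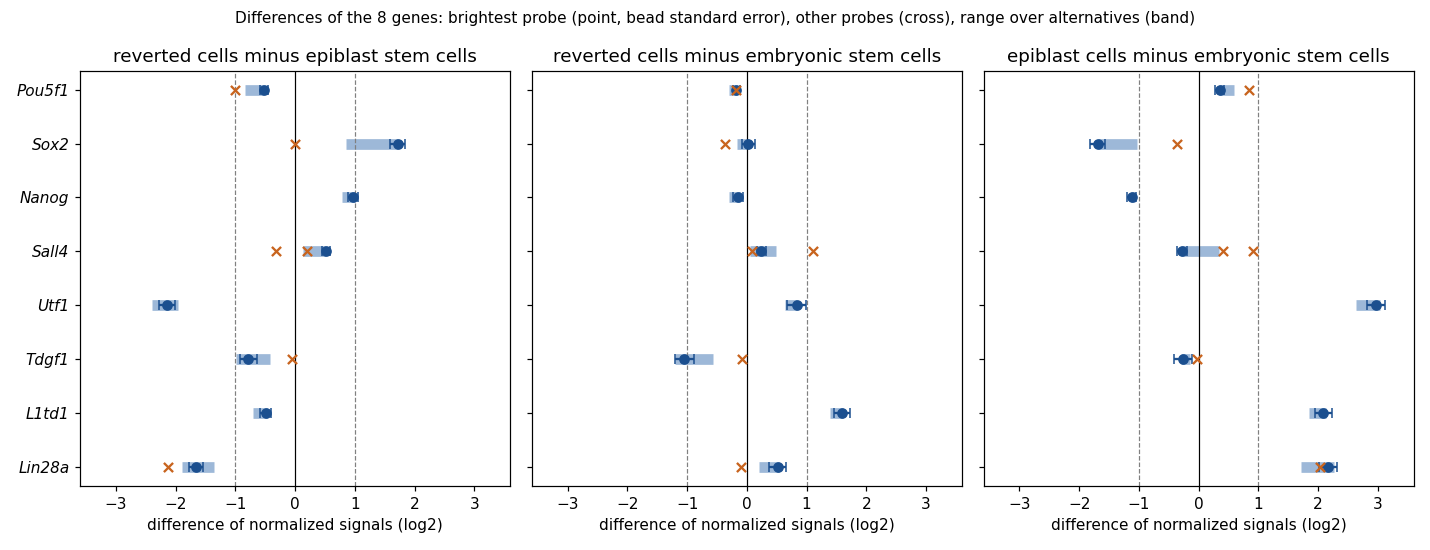
Log2 differences (horizontal axis) of the 8 genes (vertical axis) in the 3 comparisons, with the brightest probe as a point with 1 bead standard error, other probes as crosses, the range over all settings as a band, and dashed lines at 2-fold. Utf1 and Lin28a lay past 2-fold below epiblast stem cells under every setting tried, whereas the Sox2 band crossed the 2-fold line.

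Reverted against epiblast stem cells, by the brightest probe, Sox2 alone of the 8 genes was higher by 2-fold or more, Utf1 and Lin28a were lower by that much and 5 stayed within 2-fold. Of all 7726 genes with a value 12.7% were higher by 2-fold or more and 12.4% lower, so 1 gene of 8 higher is close to the background, and 2 of 8 lower is a count too small to set apart from it. Under scaling to a common median, the counts over all genes were 744 higher and 1333 lower in place of 981 and 957. The median log2 difference of the 8 genes was -0.51, against -0.02 over all genes, and their median size regardless of direction was 0.88, against 0.56. Counted by probe, 1 of 14 was higher and 4 were lower, the second Pou5f1 probe and the second Lin28a probe being added.

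Against embryonic stem cells, reverted cells had 1 gene higher by 2-fold or more (L1td1), 1 lower (Tdgf1) and 6 in between. Far fewer genes overall passed this line: 1.81% of 7286 were higher and 1.54% lower, or 85 and 186 genes in place of 132 and 112 under scaling to a common median. By their brightest probes Pou5f1, Sox2 and Nanog were within 1.13-fold of embryonic stem cells. Under scaling to a common median Pou5f1 and Nanog lay at -0.30 and -0.30, with the median of all genes at -0.15. The median log2 difference was 0.14, against 0.01 over all genes, and the median size was 0.38, against 0.24.

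Epiblast against embryonic stem cells, 3 genes were higher by 2-fold or more in epiblast stem cells (Utf1, Lin28a at 4.51-fold and L1td1 at 4.26-fold) and 2 were lower (Sox2 at 3.23-fold and Nanog). Among all 7698 genes with a value 13.9% were higher and 13.4% lower. The median log2 difference of the 8 genes was 0.04, against 0.01 over all genes, as members lay on both sides, while their median size was 1.40, against 0.58. This comparison shares the epiblast array with the first and the embryonic array with the second, so the 3 sets of differences are not independent of each other.

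**Figure D3:**
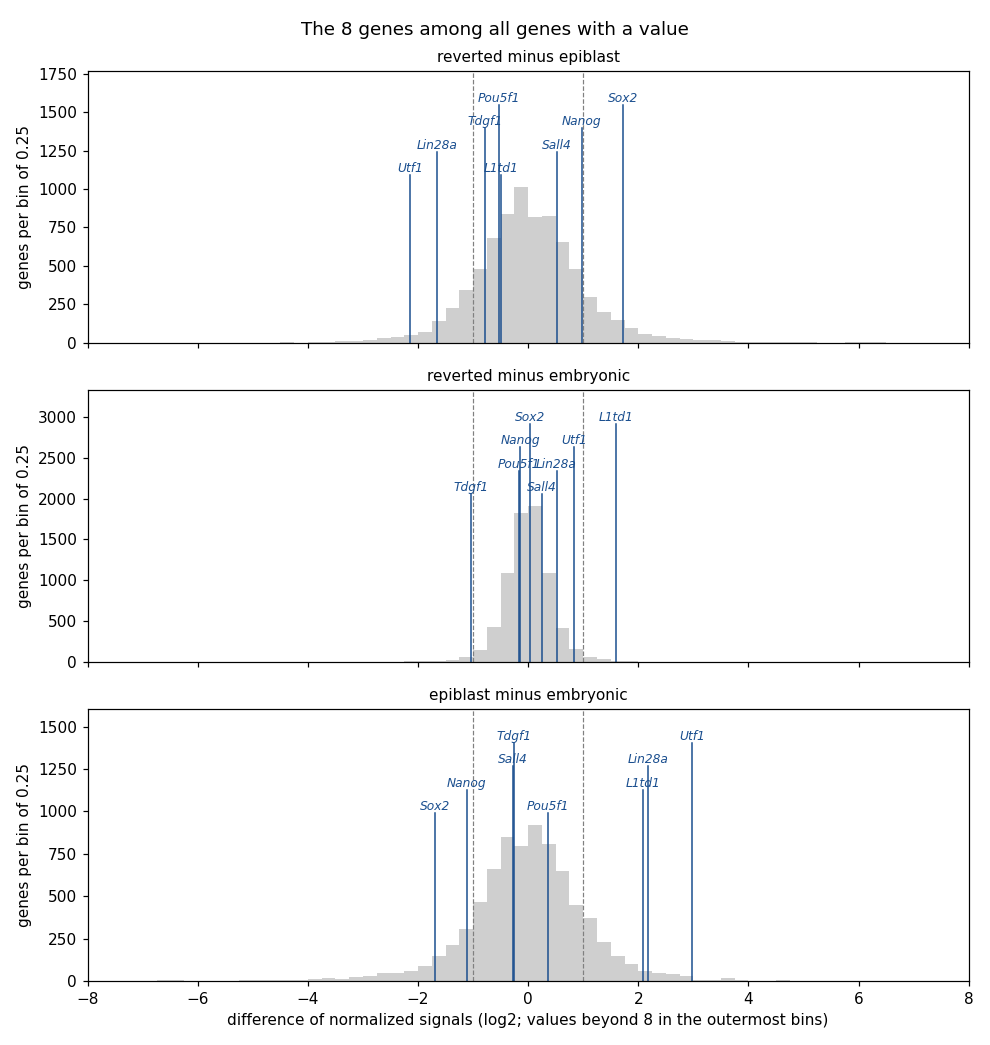
Number of genes (vertical axis) by log2 difference (horizontal axis, bins of 0.25) in each comparison, with blue lines at the brightest probe of each of the 8 genes and dashed lines at 2-fold. L1td1 and Tdgf1 lay in the tails of the narrow distribution of reverted against embryonic stem cells, and Utf1, Lin28a and L1td1 in the upper tail of epiblast against embryonic stem cells.

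Other genes of the same pathways and families came from lists of names. Core network partners, meaning cofactors and targets of Pou5f1, Sox2 and Nanog, had 22 of 28 genes with a value. In reverted cells 4 were at least 2-fold above epiblast stem cells, Dppa4 at 58.6-fold, the cell cycle regulator gene Mybl2 at 9.63-fold, the growth factor gene Fgf4 at 5.87-fold and Gdf3 at 2.36-fold. Another 3 were at least 2-fold lower, the Wnt pathway repressor gene Tcf7l1 at 3.46-fold, Mta1 at 2.73-fold and Zscan10 at 2.53-fold, and 15 were within 2-fold, with a median of 0.07, where 12.7% of all genes were higher and 12.4% lower. With the mean of a gene's probes the log2 differences of Dppa4, Mybl2 and Tcf7l1 shrank from 5.87, 3.27 and -1.79 to 2.88, 2.15 and -1.09. Without background correction that of Fgf4 was 1.76 in place of 2.55, and Mta1 was under 2-fold (-0.86). None of 21 partners with a value differed 2-fold between reverted and embryonic stem cells (median 0.28), as few genes did in all (1.81% higher and 1.54% lower). Zfp281, a zinc finger gene of the network, had log2 signals of 7.74, 7.27 and 7.26 in epiblast, reverted and embryonic stem cells.

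Tdgf1 acts in the Nodal pathway. Of its 10 measured genes, 3 had a signal lower by 2-fold or more in reverted than in epiblast stem cells, the antagonist and target gene Lefty1 at 12.3-fold, the transcription factor gene Foxh1 at 4.38-fold and Nodal at 2.54-fold. The ligand gene Gdf3 was 2.36-fold higher, 6 others stayed within 2-fold, and the list had a median of -0.60, beside 12.4% of all genes lower and 12.7% higher. Without background correction the log2 difference of Foxh1 was -1.29 in place of -2.13. The ligand gene Nodal had log2 signals of 9.24, 7.90 and 7.48 on the epiblast, reverted and embryonic arrays. Against embryonic stem cells, 1 gene was past 2-fold in reverted cells, Lefty1 at 2.05-fold higher, under 2-fold in 3 of 6 alternative settings, where 1.81% of all genes were higher. Between epiblast and embryonic stem cells 4 of 10 were at least 2-fold higher in the former and 0 lower, with Acvr2b, a receptor gene, at 2.15-fold as the fourth, beside 13.9% of all genes higher.

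In the Lin28 and let-7 pathway, of 9 genes with a value besides Lin28a, 8 were within 2-fold between reverted and epiblast stem cells, as were most genes (12.4% lower, 12.7% higher), and the median was -0.04. The cyclin gene Ccnd2, detected in epiblast stem cells only, had a signal at least 3.49-fold lower in reverted cells, with a bound of log2 -0.88 without background correction. Igf2bp3, a let-7 target that encodes an RNA-binding protein, was 1.51-fold higher in reverted than in epiblast stem cells, with log2 signals of 10.47, 11.07 and 10.65 on the arrays in the order above, but the sign turned (-0.03) with the mean of its probes. Mycn was detected on no array by the probe used. Against embryonic stem cells 7 of 8 genes were within 2-fold, as were nearly all genes, with 1.81% higher and 1.54% lower. Arid3a was 2.17-fold lower in reverted cells, and under 2-fold in 2 alternative settings.

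Relatives of Sox2, Pou5f1 and Sall4 were mostly undetected: 8 of 21 on the array had a value between reverted and epiblast stem cells. The POU gene Pou3f1, also called Oct6, was 10.5-fold lower in reverted cells, with log2 signals of 9.17, 5.78 and 5.54 in epiblast, reverted and embryonic stem cells. Sall2 was at least 3.47-fold and Sox13 at least 2.07-fold lower, both detected in epiblast stem cells only, and Sall1 was 2.04-fold higher. Sall2 was under 2-fold in 1 alternative setting (-0.87 without background correction), Sox13 in 2 and Sall1 in 4. The log2 difference of Pou3f1 was -3.40, and -2.41 without background correction. Of all genes 12.4% were lower and 12.7% higher in this comparison. The median was 0.17. Between reverted and embryonic stem cells 5 of 5 genes with a value were within 2-fold, as were nearly all genes, with 1.81% higher and 1.54% lower.

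**Figure D4:**
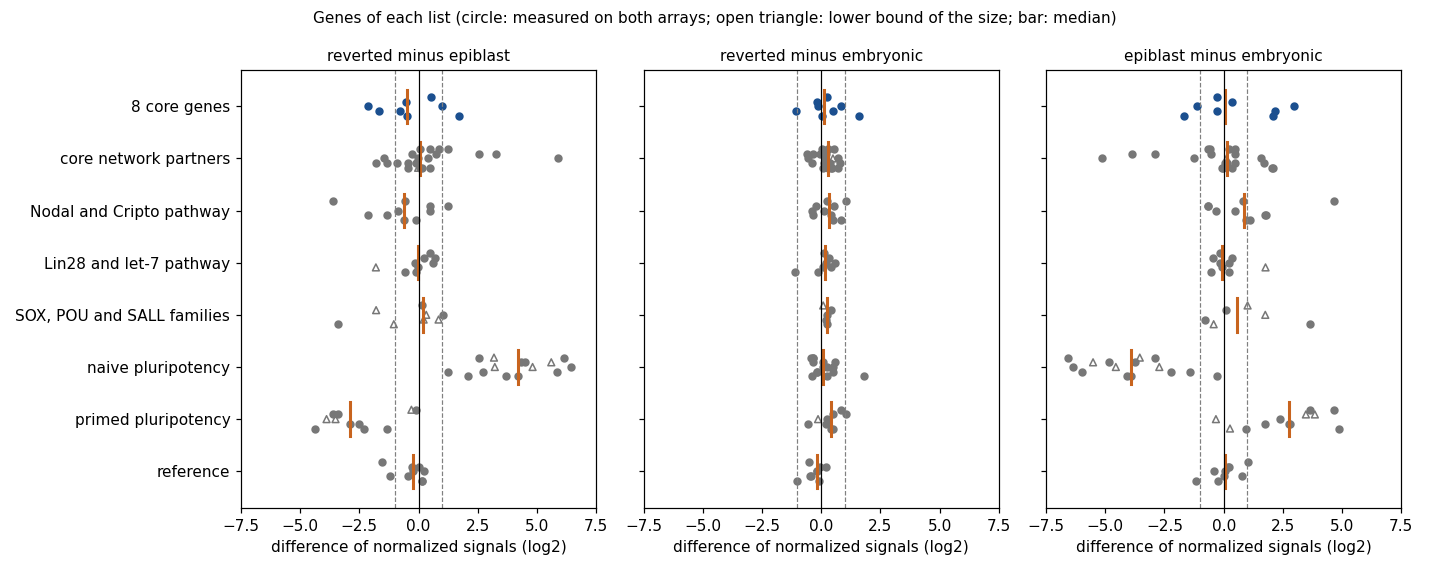
Log2 differences (horizontal axis) of the genes of each list (vertical axis) in the 3 comparisons, as circles where both arrays detected the gene and open triangles where the size is a lower bound, with list medians as orange bars and dashed lines at 2-fold. Naive and primed genes lay far from 0 against epiblast stem cells, at medians of 4.18 and -2.92, while the 8 core genes spread over both sides.

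Likeness of pattern was measured as the Euclidean distance between log2 signals centred on each gene's own mean over the 3 arrays, among 6105 genes detected on all 3. With 3 arrays such likeness is easily met: 492 genes lay within 0.2 of Pou5f1, 470 of Sall4 and 247 of Nanog. Sox2 had 97 genes within 0.2, and Utf1 and L1td1 had only 2 and 3. The distance was not scaled to a gene's range, so these counts can also depend on the size of its changes. Utf1 and L1td1 ranged over 2.98 and 2.09 on the log2 scale, against 0.53 for the brightest Pou5f1 probe. Nearest to Utf1 were Selenow and Psme1, at distances of 0.19 and 0.19, and nearest to L1td1 were Pnma2 and 1700123O20Rik, at 0.07 and 0.08. Lin28a had 24 genes within 0.2, led by Extl2 and Akt1s1, and Tdgf1 had 18, led by Lpl and Eloc. Among the 8 genes, Sox2 and Nanog were each other's nearest (0.55), as were Utf1 and Lin28a (0.57) and Pou5f1 and Tdgf1 (0.63). L1td1 lay furthest from its nearest fellow member, at 0.92 from Lin28a.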

How the data were processed

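Per the file headers, the authors deposited for each array the signal intensity of each probe, the bead standard error, and a p-value of detection, made with BeadStudio per the submitters' processing notes. Background had not been subtracted, as the lowest raw signals were 66.5 to 70.5. A second deposited table of processed intensity values, on a linear scale and normalized in a way not given in the sources used here, served as an alternative, with missing values set to 8. Per the labels' protocols, 400 ng of RNA entered a labelling reaction of 12 h.

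Raw intensities were normalized with neqc of limma 3.58.1 (offset 16, quantile, log2) in R 4.3.3. The same steps were run on simulated arrays in which only brighter probes were changed, by more than 2-fold. Dim probes and differences near 2-fold were therefore not tested. Later steps used Python 3.11.15, pandas 2.3.3, numpy 2.4.6 and matplotlib 3.10.9. Bead standard errors were carried to log2 by dividing by the background-corrected intensity. Symbols came from the platform table, updated by gene identifier for 23962 of 23978 probes. For counts, a gene took the probe with the highest mean normalized signal. A probe counted as detected at p under 0.01. An undetected side entered at the lowest detected log2 signal of that array (4.87, 5.06 and 5.10) or its own if higher, and the size is written "at least". The 8 genes, taken by symbol with no threshold, and the lists were chosen with earlier results of these data known. All members are named. The rule for other genes took up to 4 genes of each list with the largest differences, 10 further genes whatever their values and the 2 nearest genes by pattern. Not all genes the rule reached are described. Lin28b was not analysed here. Among those left out were Zfp42, Fgf5, the reference genes with Gapdh and Actb, and the genes nearest to Pou5f1, Sox2, Nanog and Sall4. Mta1, Mycn, Col1a1, Col1a2 and Col3a1 fall outside this rule and were named after their values were seen. Promoters and microRNAs are RefSeq sequences on GRCm38.p6.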

Additional observations from a re-analysis of the deposited data

How the results depend on the processing

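The settings tried in place of the main ones were the mean of a gene's probes, detection at p under 0.05, the authors' processed values, median scaling, a larger normexp offset (50), and no correction for background. No paired analysis was possible because each group had 1 array, and for the same reason no array could be left out. Of 42 differences of the 14 member probes, 14 were past 2-fold. Of these, 4 came under it in some alternative, none changed sign, and 2 others passed it. Among 135 differences of list genes, those the naming rule reaches plus Mta1 and Zscan10, 77 were past 2-fold, 25 of which came under it in some alternative. The count of members at least 2-fold higher in reverted than in epiblast stem cells, 1, became 2 with the authors' values and 0 with the mean of probes. The count lower than in embryonic stem cells, 1, became 0 without background correction, with the offset of 50 and with the mean of probes. Over all genes, no background correction gave 553 higher and 470 lower for reverted against epiblast, 38 and 37 for reverted against embryonic, and 538 and 572 for epiblast against embryonic stem cells, in place of 981 and 957, 132 and 112, and 1067 and 1035. The offset of 50 gave 688 higher and 618 lower in the first, 59 and 55 in the second, and 690 and 721 in the third. In the second comparison, scaling to a common median gave 85 higher and 186 lower, and the authors' values gave 219 and 210. Both background choices compress dim signals by construction. The cause of the other changes was not tested. The dimmest probes of Sox2, Sall4 and Tdgf1 had raw signals close to the array medians. Whether this hid differences on them was not tested.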

Other observations

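How far probes of 1 gene go together bears on Sox2, Sall4 and Tdgf1, whose probes differed. Over all genes, 1541 had 2 or more probes detected on all 3 arrays. For reverted against epiblast stem cells the brightest probe was past 2-fold in 377 of them, and the second probe was past it in the same direction in 166 (44.0%). Where the second probe had a mean raw signal under 150, this held for 29 of 115 genes (25.2%), against 137 of 262 (52.3%) where it was brighter. For epiblast against embryonic stem cells the shares were 34 of 122 (27.9%) and 153 of 266 (57.5%). For reverted against embryonic stem cells, where the Tdgf1 and Sall4 probes differed, the second probe followed in 11 of 32 genes (34.4%). The median gap between both probes was 0.40 on the log2 scale for reverted against epiblast, 0.39 for epiblast against embryonic and 0.19 for reverted against embryonic stem cells. The split at 150 was chosen after the data were seen, and what lies behind the gaps, such as transcript variants or probe sequences, was not tested.

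A few marker genes differed by 2-fold or more between reverted and embryonic stem cells. Of 15 measured naive genes, 14 were within 2-fold (median 0.08). The exception was Dppa3, whose reverted signal was 3.46-fold that of embryonic stem cells. Of 5 measured extraembryonic endoderm genes 3 were lower by 2-fold or more, Dab2 by 3.49-fold, Col4a1 by 3.10-fold and Gata6 by 2.47-fold. Dab2 was under 2-fold (log2 -0.87) with the mean of its probes. Of all genes with a value in this comparison, 1.54% were lower and 1.81% higher by 2-fold or more.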
